A study of Mus musculus with 6 samples.

Results

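Mitochondria carry ribosomes of their own, which translate the few proteins encoded by mitochondrial DNA, all of them subunits of the respiratory chain and ATP synthase. The RNA of these ribosomes comes from the mitochondrial genome, but every protein component is encoded in the nucleus, transcribed by RNA polymerase II into capped mRNA, translated in the cytoplasm and imported. Some mitochondrial ribosomal proteins are homologs of bacterial ribosomal proteins and the rest have no counterpart in bacterial ribosomes. T cells build more mitochondria when they are activated, and the mRNAs measured here are those of cells sorted as naïve.

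The mRNAs of mitochondrial ribosomal proteins were followed here in mouse naïve CD4 T cells, using sequencing of rRNA-depleted RNA. The genes were chosen by symbol alone, Mrpl or Mrps followed by a number, among the 11221 genes of the deposited comparison table, which gave 77 genes of the 46983 genes counted. All 77 passed the filter on low counts (CPM, read counts scaled to a common library size with TMM factors, above 1 in 3 samples or more) and exceeded 1 CPM in all 6 libraries, so no gene entered the test through 1 group alone. They comprised 50 genes of the large subunit, 26 of the small subunit and Mrps36, whose product is now known as a component of the 2-oxoglutarate dehydrogenase complex. Mrps18a and Mrps30 were counted with the large subunit, where their products are found. The 77 genes lie on 17 chromosomes, with at most 11 on 1 chromosome. Another 6 genes carry such a name in the annotation without being in the table. Of these, 5 are pseudogenes, and none of the 6 held more than 5 counts in a library. The sixth, Mrpl53, held 0 counts in all libraries on the sense strand and on either strand. Its exons share 695 bases with Gm42688 on the same strand in GENCODE vM21. Reads over both genes are not assigned to a gene by the counting, so the 0 sets no upper limit on the level of Mrpl53.

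Both groups were male mice on a C57BL/6J-type background with Rnmt fl/fl alleles, in which loxP sites flank exon 3 of Rnmt, the gene of the RNA cap guanosine methyltransferase. The 3 controls lacked Cre, and the 3 Rnmt cKO samples also carried the CD4cre transgene, which deletes from the double positive stage of thymic development onwards. The transgene and the loss of Rnmt cannot be told apart in this design, and ages were not given in the sources used here. Naïve CD4 T cells were sorted from lymph nodes (TCRb+, CD4+, CD62L+, CD44-), and RNA was depleted of rRNA before library preparation. The comparison asks how far the mRNAs of this family need RNMT before activation.

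Each library held between 8873413 and 11277764 sense counts in genes. Uniquely mapped reads in no gene are those over no sense-strand exon, so they can include reads in introns or antisense to genes. These reads made up 36.1%, 39.7% and 46.1% of control libraries 1, 2 and 3. They made up 47.9%, 46.5% and 31.8% of Rnmt cKO libraries 1, 2 and 3, so Rnmt cKO 3 stood apart from the other Rnmt cKO libraries. Rnmt held 51.4, 58.6 and 57.8 CPM in the controls and 41.9, 37.4 and 26.6 CPM in the Rnmt cKO libraries, lower in each (log2 fold change -0.67 ± 0.20 SE, adjusted p = 0.00035, edgeR exact test), over a gene from which 1 exon was removed. The T cell markers Cd3e, Cd3g, Cd4 and Trac together gave between 1753 and 2130 CPM in every library. Summed over 4 B cell markers, the controls lay between 25.1 and 30.5 CPM with Rnmt cKO between 34.8 and 56.8 CPM, and summed over 6 cycling cell markers between 62.5 and 76.7 CPM with Rnmt cKO between 286 and 319 CPM. Of the 5 myeloid markers 2 were tested and Lyz2 rose. Their part in the results below was not tested. In sorted bulk samples, fewer cells of a type and less RNA per cell cannot be told apart.

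Mitochondrial ribosomal protein mRNAs had overlapping summed levels in the groups. Together the 77 genes gave 2228, 2055 and 1956 CPM in the controls and 2038, 1937 and 2312 CPM in the Rnmt cKO libraries. The groups overlapped, with the highest value in Rnmt cKO 3 and the next in control 1. The means were 2080 ± 138 and 2095 ± 194 CPM (SD, n = 3 each), a ratio of 1.01, which is smaller than the spread between replicates. Control sums were 1399 ± 97.0 CPM for the large subunit genes and 675 ± 41.2 CPM for the small subunit genes, and Rnmt cKO sums were 1413 ± 154 and 676 ± 41.1 CPM (SD, n = 3 each). The controls had a ratio of large to small subunit CPM of 2.07 ± 0.04 and Rnmt cKO one of 2.09 ± 0.10, so the balance between the subunits differed by less than its spread.

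Gene by gene, 4 of the 77 changed (5.19%), against 14.8% of the 12336 genes tested. Mrpl14 was the 1 gene that fell, where 6.84% of all tested genes fell, and Mrpl32, Mrpl35 and Mrpl9 rose, where 8.00% of all tested genes rose. Before adjustment, p was under 0.05 for 3 lower and 7 higher members. The median log2 fold change of the family was 0.0019, beside 0.012 over all tested genes, with 38 genes below 0 and 39 above. Changes of the family were also narrowly distributed. Its middle 50% of genes spanned -0.12 to 0.12 on the log2 scale, whereas that of all tested genes spanned -0.17 to 0.17. For the 7436 genes with a control CPM within the range of the family, it spanned -0.16 to 0.14, and 13.5% of them changed. In the family 63 of 77 (81.8%) lay within 0.25 of 0, against 63.5% of all tested genes and 71.0% of the 7436 genes. No member differed by more than 1 log2 unit, against 591 of the 12336 tested genes and 124 of the 7436 genes in the CPM range of the family. For 77 genes, 0 is near the share in that range. Standard errors of the log2 fold changes ran from 0.03 to 0.26 with a median of 0.15, above the median of 0.12 for the 7436 genes. A log2 change of 0.1 was therefore within the error of most members. None of these counts shows that the other 73 genes were equal in the groups.

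**Figure D1:**
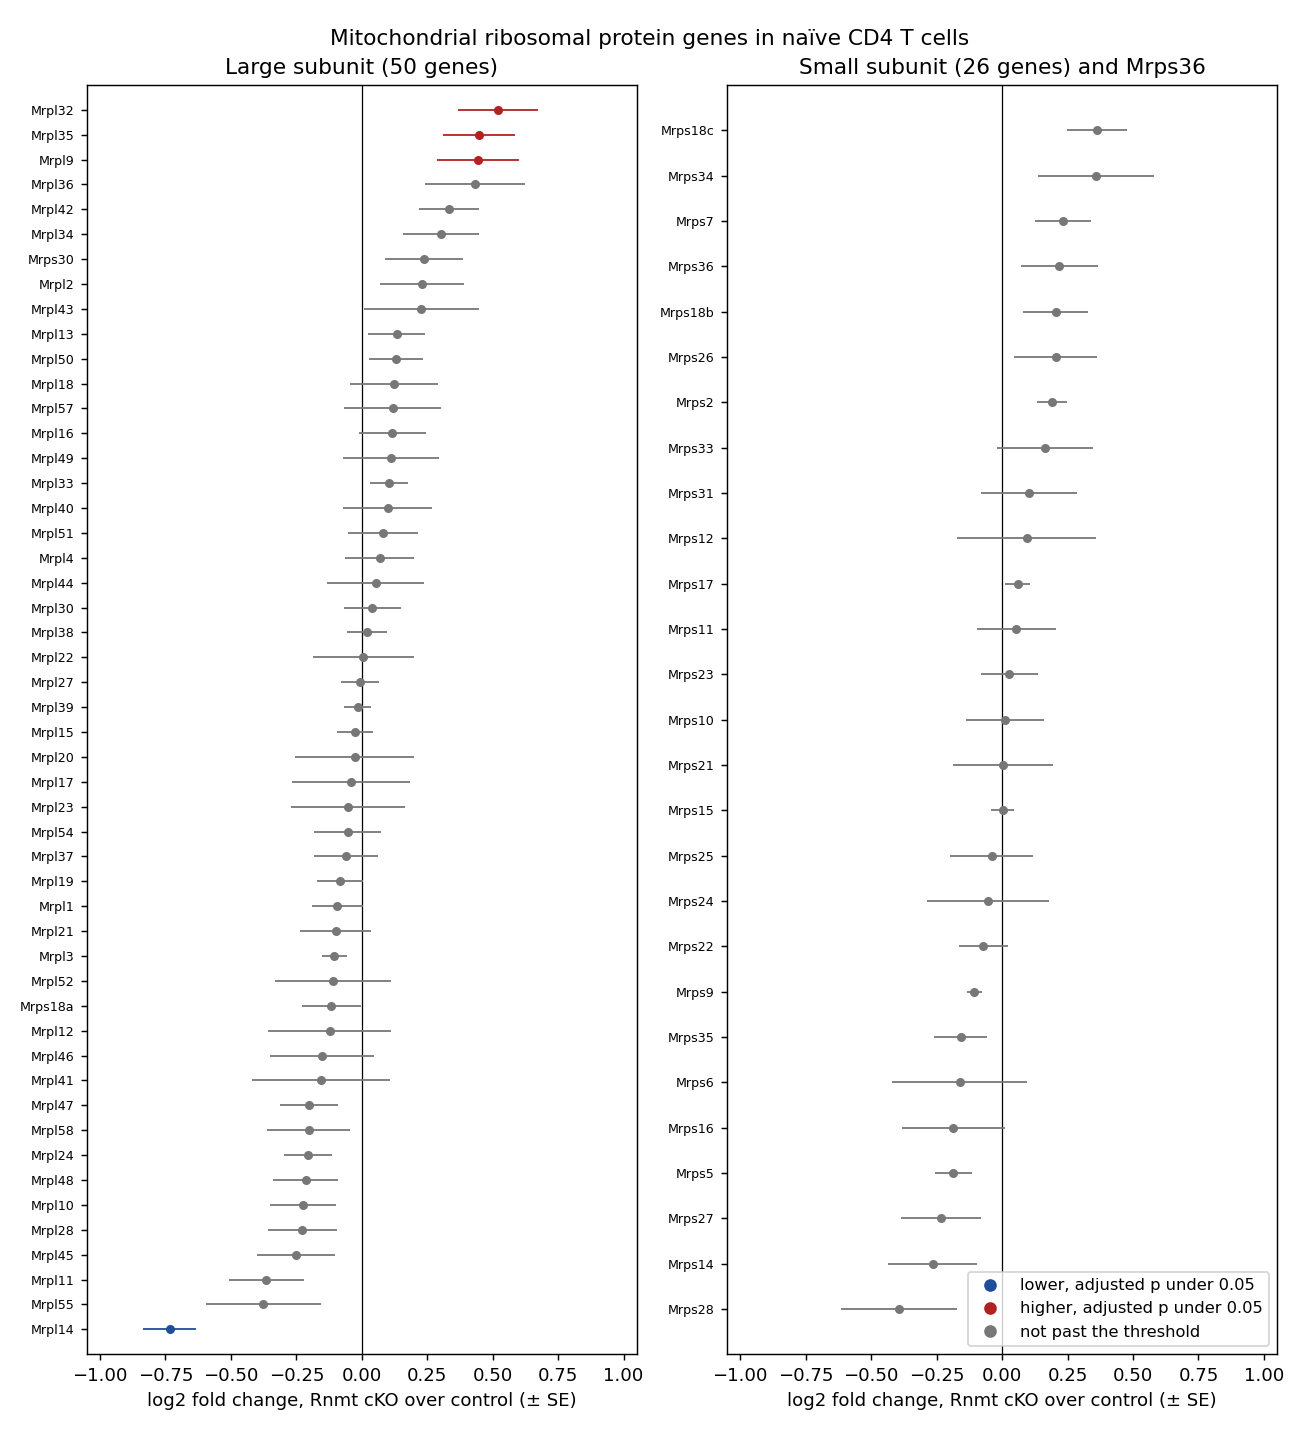
Log2 fold change (Rnmt cKO over control, horizontal axis, ± SE) of the 50 large subunit genes (left) and of the 26 small subunit genes with Mrps36 (right), ordered by value, with genes past the threshold in colour. Mrpl14 stands alone on the left at -0.73, and the 3 genes that rose are at the top of the large subunit panel, between 0.44 and 0.52.

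Both subunits were centred near 0. The 50 large subunit genes had a median log2 fold change of -0.02 and the 26 small subunit genes of 0.0082. All 4 genes that changed belong to the large subunit and are homologs of bacterial ribosomal proteins. They were 8.0% of the large subunit genes and 8.33% of the genes with such a homolog, against 14.8% of all tested genes. Of the 26 small subunit genes, 0 passed the exact test, 0 the quasi-likelihood test and 0 the DESeq2 Wald test. Of all tested genes, 14.8%, 11.6% and 10.9% passed these 3 tests. Before adjustment, 0 lower and 2 higher small subunit genes had a p under 0.05 in the exact test. The 48 genes with a homolog in bacterial ribosomes and the 29 genes without one, Mrps36 included, had medians of -0.02 and 0.03. Of the 29, 0 passed by any of these tools, and before adjustment 0 lower and 2 higher had a p under 0.05. These zeros hold for each tool run on all 6 libraries with its own scaling and no covariate. Mrpl42, Mrps30 and Mrps34 passed with the share of reads in no gene as covariate and with scaling by library size alone. Mrps7 and Mrps18c, of the small subunit, passed with that scaling too. Further members of both sets passed when a library was left out. Whether the subunits or the classes of origin differ from each other was not tested.

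Mrpl14 (ENSMUSG00000023939, chr17:45686322-45698495, mm10) encodes a large subunit protein on the face that meets the small subunit, where the assembly factor MALSU1 binds. Its level was 7.04, 6.08 and 7.28 CPM in the controls and 3.69, 4.29 and 4.20 CPM in the Rnmt cKO libraries. All 3 Rnmt cKO values were below all controls. Means were 6.80 ± 0.64 and 4.06 ± 0.33 CPM (SD, n = 3), and the log2 fold change was -0.73 ± 0.10 SE (adjusted p = 0.01, edgeR exact test), to 0.60 of the control level. Its CPM was among the lowest of the members, while its 10.5 RPKM (CPM per kilobase of annotated exons) in controls ranked 52 of 77. The call was lost without control 1 (adjusted p = 0.056), control 3 (0.062) or Rnmt cKO 1 (0.084), with log2 fold changes of -0.71, -0.68 and -0.67. It was also lost under the DESeq2 Wald test (log2 fold change -0.75, adjusted p = 0.058). Malsu1 itself had a log2 fold change of -0.07 ± 0.11 SE (adjusted p = 0.83).

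Mrpl32 (ENSMUSG00000015672, chr13:14608184-14613165) encodes a large subunit protein that is matured by the m-AAA protease of the inner membrane before it enters the ribosome. It held 28.4, 25.3 and 23.5 CPM in the controls and 35.6, 31.7 and 43.3 CPM in the Rnmt cKO libraries, with no overlap. The log2 fold change was 0.52 ± 0.15 SE (adjusted p = 0.0045), a 1.43-fold rise, and it was 0.46 without control 3 (adjusted p = 0.055).

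Mrpl9 (ENSMUSG00000028140, chr3:94443318-94451130), the homolog of bacterial L9, held 46.2, 40.1 and 48.6 CPM in the controls and 56.1, 54.4 and 72.8 CPM in the Rnmt cKO libraries. Every Rnmt cKO library was above every control, and Rnmt cKO 3 was the highest. The log2 fold change was 0.44 ± 0.16 SE (adjusted p = 0.012), and it was 0.36 without control 2 (adjusted p = 0.15) and 0.28 without Rnmt cKO 3 (adjusted p = 0.046). Exons of Mrpl9 share 157 bases with Oaz3 on the opposite strand, which the strand-specific counts keep apart.

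Mrpl35 (ENSMUSG00000052962, chr6:71812997-71826969), the homolog of bacterial L35, held 17.4, 16.6 and 16.0 CPM in the controls and 20.8, 20.3 and 27.1 CPM in the Rnmt cKO libraries. The groups did not overlap and the controls lay close together. The log2 fold change was 0.45 ± 0.14 SE (adjusted p = 0.032). This was the least stable of the 4 calls and passed under 7 of 16 other settings. Without control 1, control 2, control 3 or Rnmt cKO 3 it did not pass (adjusted p from 0.083 to 0.14), with a log2 fold change of 0.28 without Rnmt cKO 3. With all 6 libraries it did not pass the quasi-likelihood test (adjusted p = 0.061) or the DESeq2 Wald test (0.096). Nor did it pass the exact test with no filter on low counts (0.068) or with counts on either strand (0.057).

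**Figure D2:**
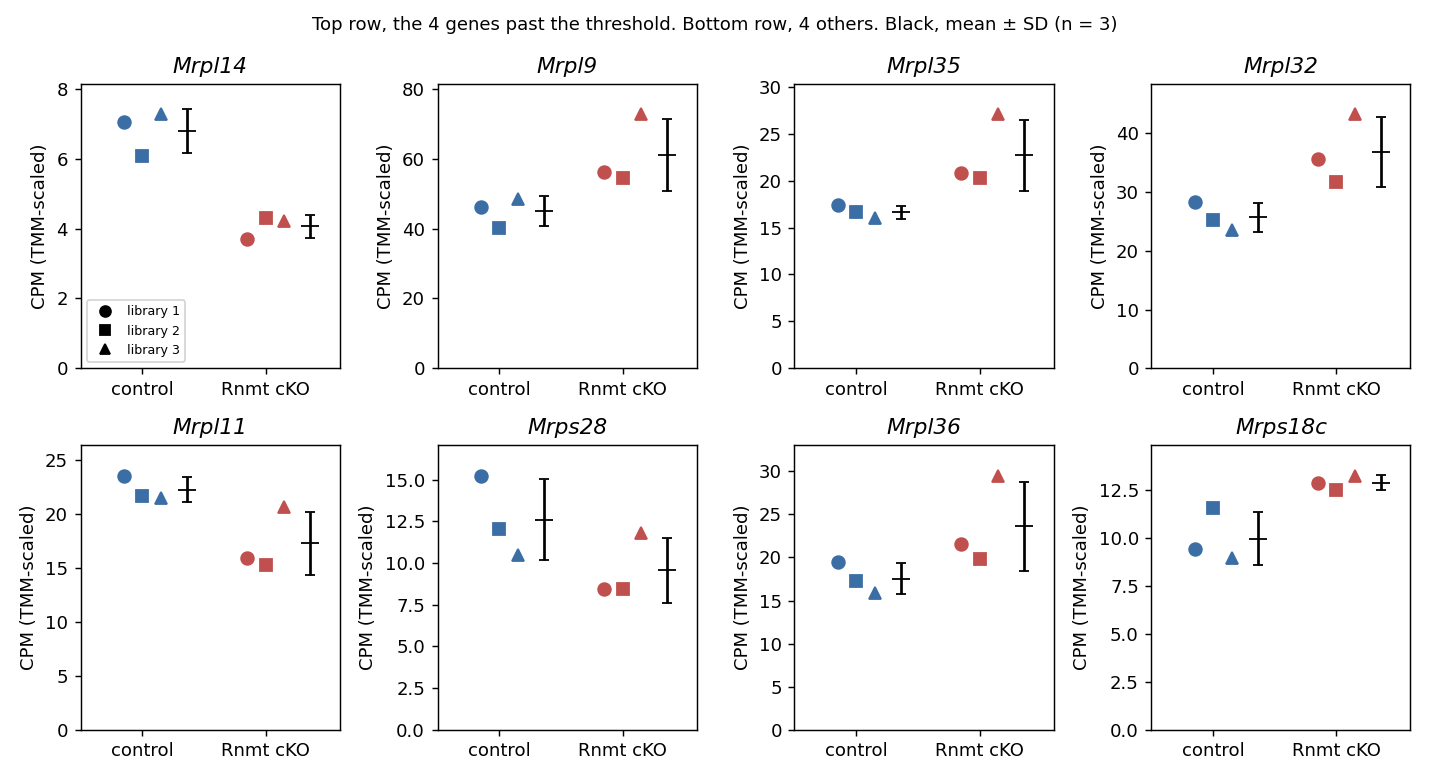
CPM (TMM-scaled, vertical axes from 0) in each of the 3 control and 3 Rnmt cKO libraries, with mean ± SD in black, for the 4 genes past the threshold (top) and for 4 others with large log2 fold changes that did not pass (bottom). Groups are apart in all top panels. Rnmt cKO 3 is the highest Rnmt cKO library in every panel but that of Mrpl14.

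Further genes had groups that did not overlap without passing the threshold. In all, 5 genes were lower and 7 higher in every Rnmt cKO library than in every control, against 14.9% and 16.6% of all tested genes. Besides Mrpl14, the lower ones were Mrpl11, Mrpl24, Mrps5 and Mrps9, and besides the 3 that rose the higher ones were Mrpl36, Mrps18c, Mrpl42 and Mrps2. Mrpl36, the homolog of the small bacterial protein L36, held 19.5, 17.2 and 15.9 CPM without Cre and 21.5, 19.9 and 29.5 CPM with it. These values lay close together apart from Rnmt cKO 3 (log2 fold change 0.43 ± 0.19 SE, adjusted p = 0.084). The log2 fold change of Mrpl36 was 0.22 without Rnmt cKO 3 (adjusted p = 0.31) and 0.54 without Rnmt cKO 2 (adjusted p = 0.040). For Mrps18c the controls gave 9.39, 11.6 and 8.93 CPM, each below the 12.9, 12.5 and 13.2 CPM of Rnmt cKO (0.36 ± 0.11 SE, adjusted p = 0.16).

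At the other end of the order, Mrps28, the counterpart of bacterial S1, held 15.3, 12.1 and 10.5 CPM in control libraries, then 8.44, 8.42 and 11.8 CPM in those of Rnmt cKO. Rnmt cKO 3 lay among the controls (log2 fold change -0.39 ± 0.22 SE, adjusted p = 0.24). Mrpl55, the counterpart of bacterial L31, had a log2 fold change of -0.37 ± 0.22 SE (adjusted p = 0.29), and Mrps14, the homolog of bacterial S14, one of -0.26 ± 0.17 SE (adjusted p = 0.32). Rnmt cKO 3 was also the highest Rnmt cKO library for both of them.

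Genes chosen for their place or role on the ribosome did not pass the threshold. The stalk, which recruits translation factors, is built on Mrpl11 and from Mrpl10 and Mrpl12. For Mrpl11 the control libraries gave 23.6, 21.7 and 21.5 CPM, those of Rnmt cKO 15.9, 15.2 and 20.7 CPM, so that the groups did not overlap but Rnmt cKO 3 came close to the controls (log2 fold change -0.36 ± 0.14 SE, adjusted p = 0.099). Mrpl10 and Mrpl12 had log2 fold changes of -0.22 ± 0.13 SE (adjusted p = 0.28) and -0.12 ± 0.23 SE (adjusted p = 0.77). Mrps12, the S12 homolog at the decoding centre, had 0.09 ± 0.26 SE (adjusted p = 0.86). At the end of the tunnel through which the new chain leaves, Mrpl23 had -0.05 ± 0.22 SE, Mrpl24 had -0.21 ± 0.09 SE and Mrpl45, which contacts the inner membrane, had -0.25 ± 0.15 SE (adjusted p = 0.94, 0.19 and 0.32). The 3 paralogs of bacterial S18 had log2 fold changes of -0.12 ± 0.11 SE for Mrps18a, 0.21 ± 0.13 SE for Mrps18b and 0.36 for Mrps18c. Mrpl58, a peptidyl-tRNA hydrolase built into the large subunit, had -0.20 ± 0.16 SE, Mrpl44, which has an RNase III fold, 0.05 ± 0.19 SE, Mrps30 0.24 ± 0.15 SE and Mrps36 0.22 ± 0.15 SE. The signs of Mrpl12, Mrps12, Mrpl23, Mrpl44 and Mrps18a turned under other settings.

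The levels per length ranked much alike in the groups. RPKM values (CPM per kilobase of annotated exons) ran from 2.84 to 71.5 in controls with a median of 15.4, beside 15.6 in Rnmt cKO. For comparison, the median was 994 RPKM for the 76 cytoplasmic ribosomal protein genes and 9.06 RPKM for all tested genes in the controls. Across the 77 genes Spearman's rho between control and Rnmt cKO RPKM was 0.97, over genes that share the same libraries and lengths. Mrpl33 was highest at 71.5 ± 4.95 RPKM in controls and 77.1 ± 4.22 in Rnmt cKO, followed by Mrpl24 at 66.4 ± 5.51 and 57.6 ± 4.22, Mrpl30 at 57.6 ± 2.84 and 59.3 ± 7.07, Mrpl52 at 49.6 ± 5.53 and 45.8 ± 11.8 and Mrps21 at 49.4 ± 9.96 and 49.4 ± 6.15 (SD, n = 3). Mrpl24 and Mrpl30, and Mrpl52 and Mrps21, stood in the opposite order in Rnmt cKO. In the controls Mrpl33 and Mrpl24 differed by less than the larger of their SDs, as did Mrpl52 and Mrps21, while Mrpl30 lay apart from both neighbours by more than 1 SD. The lowest was Mrpl17 at 2.84 ± 0.59 RPKM in controls, then Mrpl47 at 4.45 ± 0.39, Mrpl35 at 4.48 ± 0.19, Mrpl48 at 4.99 ± 0.29 and Mrps25 at 5.20 ± 0.56, where Mrpl47 and Mrpl35, and Mrpl48 and Mrps25, differed by less than 1 SD. The order depends on lengths that merge the exons of all annotated transcripts, whichever are used in these cells. These were 478 bases for Mrpl33 and 7605 bases for Mrpl17, which held 21.6 CPM in controls. Across the 77 genes, the rank correlation of the log2 fold change was -0.08 with exon length and 0.04 with control RPKM.

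**Figure D3:**
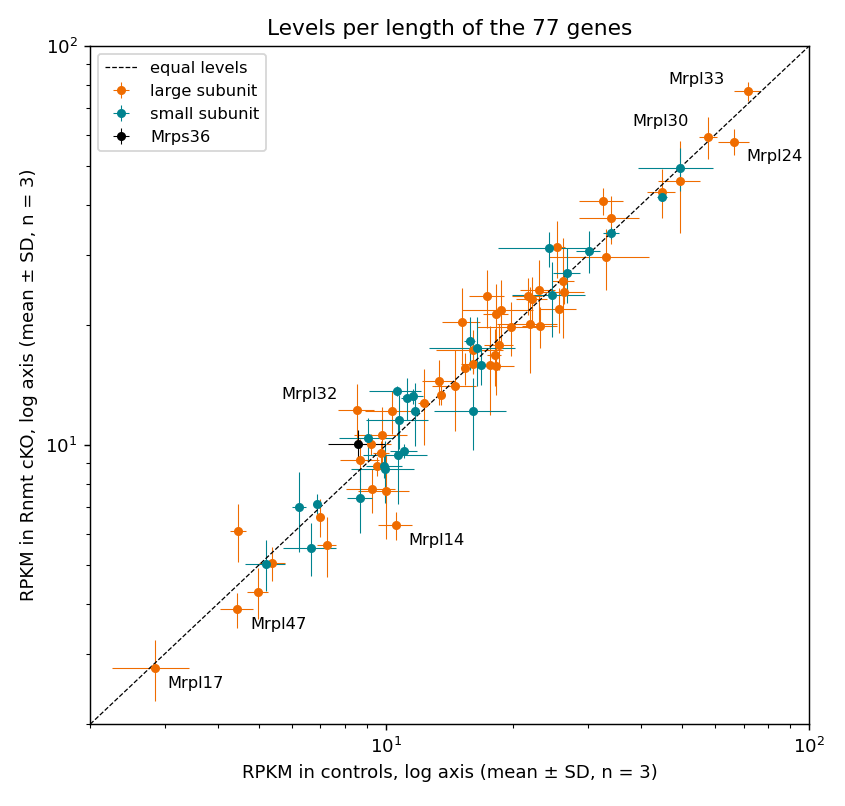
RPKM of each of the 77 genes in controls (horizontal) and in Rnmt cKO (vertical), both on log axes, as mean ± SD of 3 libraries, with a dashed line of equal levels. The genes follow the line over the range from 2.84 to 71.5 RPKM, with Mrpl14 below it and Mrpl32 above.

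The cytoplasmic ribosome offers the nearest comparison. Its 76 protein genes had a median log2 fold change of -0.67 and 66 of them fell, none rose, and 76 of 76 fold changes were below 0. The summed CPM of the cytoplasmic genes was 41.9, 37.3 and 36.5 times that of the mitochondrial genes in the controls and 21.5, 21.8 and 27.3 times in the Rnmt cKO libraries. This ratio, formed within each library, did not overlap between the groups. Its control mean was 38.5 ± 2.91, its Rnmt cKO mean 23.5 ± 3.25 (SD, n = 3). No test was run between the families, since both were chosen with these data known.

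**Figure D4:**
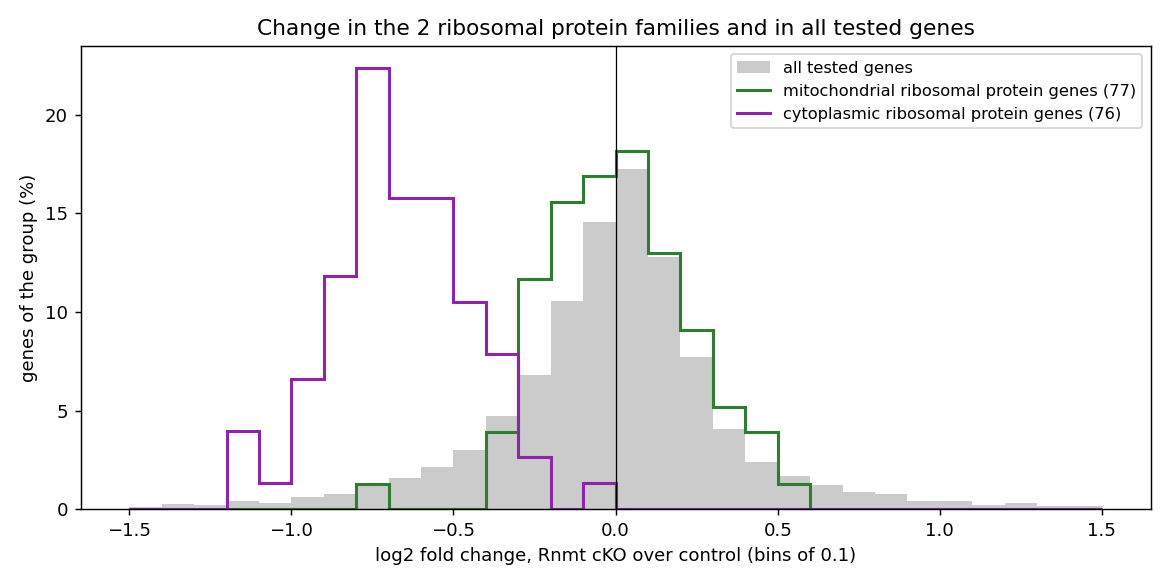
Share of genes (%, vertical) by log2 fold change in bins of 0.1 (horizontal), for all tested genes in grey, the 77 mitochondrial genes in green and the 76 cytoplasmic ribosomal protein genes in purple. The green outline peaks at 0 and the purple one near -0.7, and 2.14% of all tested genes lie outside the range shown.

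Cytoplasmic ribosomal protein mRNAs are known for a terminal oligopyrimidine (TOP) start, a cytosine at the first transcribed base followed by a run of pyrimidines, so the annotated starts of both families were read from RefSeq (GRCm38.p6). Promoters were found for 68 of the 77 mitochondrial genes, with 74 sequences. Of the 74, 0 started with a cytosine followed by 4 pyrimidines, against 13 of 66 (19.7%) for 56 of the 76 cytoplasmic genes, 2.33% of the promoters of tested protein-coding genes and 2.51% of all promoters. Beside 2.33%, 0 of 74 is near the background. Annotated starts gave 19.7% even in the family known for TOP starts, so the 0 does not show that the mitochondrial genes lack them. A cytosine at the first base was annotated in 11 of 74 (14.9%), 30.3%, 14.7% and 16.3%. The first 5 bases from the annotated start are in capitals below, after 15 bases upstream, for the 4 mitochondrial genes that changed and for the 2 cytoplasmic genes with such a start and the largest falls.
Mrpl14 (chr17:45686334-45686363, plus strand): ctcacggagaaccccTGGCGcgcaggcgca
Mrpl32 (chr13:14613023-14613052, minus strand): ctcagcccgcgtcccGCTCTgtcttgagaa
Mrpl9 (chr3:94443321-94443350, plus strand): gtccttcttccgcctGTCCGctccgctgtc
Mrpl35 (chr6:71823770-71823799, minus strand): taactttgagtccacTGCGGccaccgtagg
Rps21 (chr2:180257364-180257393, plus strand): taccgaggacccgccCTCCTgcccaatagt
Rps27 (chr3:90213634-90213663, minus strand): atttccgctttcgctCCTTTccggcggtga
Mrpl14 and Mrpl35 are annotated to start with T and Mrpl32 and Mrpl9 with G, beside CTCCT and CCTTT in the cytoplasmic genes. Rps21 and Rps27 had log2 fold changes of -1.01 ± 0.25 SE and -0.97 ± 0.27 SE (adjusted p = 1.2e-06 and 2.3e-05). Both were chosen for their start and their fall, so they cannot show whether such a start and a fall go together. That was not tested. An annotated start is not a measured one. The RefSeq start of Mrpl9 lies 18 bases, that of Mrpl14 27 bases, that of Mrpl32 128 bases and that of Mrpl35 3185 bases from the outermost start of the gene in GENCODE.

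Genes for mitochondrial proteins are often bound by the factors NRF1, GABP (an ETS factor) and YY1, and the letters of these motifs were sought on both strands in the 300 bases around each start. The NRF1 core GCGCATG was in 8 of 74 promoters of the family (10.8%), against 7.52% of those of tested protein-coding genes and 3.91% of all promoters. The ETS core CCGGAAG was in 25 (33.8%), against 19.5% and 8.86%, and the YY1 motif AAGATGG in 13 (17.6%), against 7.61% and 6.34%. In the cytoplasmic family these motifs were in 13.6%, 36.4% and 16.7%, so the families differed less in these letters than in their starts. None of the 3 motifs contains another. Of the genes that changed, Mrpl9 and Mrpl32 held the NRF1 core within a stretch that reads the same on both strands, shown here with the core in capitals.
Mrpl9 (chr3:94443297-94443326, plus strand): gaggcgcagctGCGCATGcgcggggtcctt
Mrpl32 (chr13:14613106-14613135, minus strand): ctttgacccttGCGCATGcgcaagaggggc
The promoters of Mrpl35 and Mrpl32 also hold the YY1 letters, and that of Mrpl35 holds them once on each strand, 23 and 36 bases after the annotated start, and the letters 23 bases after it are given here in capitals. The promoter of Mrpl14 held none of the 3 motifs.
Mrpl35 (chr6:71823743-71823772, minus strand): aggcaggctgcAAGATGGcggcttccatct

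Many members share a promoter region with a gene on the opposite strand. A protein-coding gene started within 1000 bases upstream and in the other direction for 18 of 77 (23.4%), against 11.6% of 10390 tested protein-coding genes. Of these 18 partners 17 were tested and 3 changed (17.6%), near the 14.8% of all tested genes. They were Pnpla7 beside Mrpl41 (log2 fold change 0.41 ± 0.08 SE, adjusted p = 0.00048), Ncapd2 and Fau. Ncapd2, a condensin subunit gene 100 bases from Mrpl51, rose with a log2 fold change of 0.89 ± 0.09 SE (adjusted p = 8.4e-12), beside 0.08 ± 0.13 SE for Mrpl51 (adjusted p = 0.80). Fau, whose product contains the cytoplasmic ribosomal protein S30 and which starts 59 bases from Mrpl49, fell by 0.52 ± 0.23 SE on the log2 scale (adjusted p = 0.019), beside a positive log2 fold change of 0.11 ± 0.18 SE for Mrpl49 (adjusted p = 0.75). Conversely, Mrpl32 rose beside Psma2, a proteasome subunit gene 75 bases away with a log2 fold change of -0.004 ± 0.19 SE (adjusted p = 1.0). These pairs were chosen after their values were seen.

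Library differences reached the family as a whole. The median log2 ratio of the 77 genes to their control mean was 0.09, -0.02 and -0.10 for controls 1, 2 and 3. For Rnmt cKO 1, 2 and 3 it was -0.04, -0.11 and 0.17, while the median of all tested genes stayed between -0.003 and 0.02. Rnmt cKO 3 was the highest Rnmt cKO library for 62 of the 77 genes, against 41.4% of all tested genes, and control 1 the highest control for 49 of 77, against 35.6%. These are the 2 libraries with the fewest reads in no gene, and the part of that share in the levels was not tested. Among the 3 libraries with under 40% of reads in no gene (control 1, control 2, Rnmt cKO 3), the member median of Rnmt cKO minus control was 0.15, and among the other 3 it was -0.003. Mrpl14 was lower in both sets (-0.61 and -0.84), and Mrpl32 (0.69 and 0.51), Mrpl35 (0.67 and 0.36) and Mrpl9 (0.75 and 0.18) higher in both, with 1 library in 1 arm of each set and no test.

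**Figure D5:**
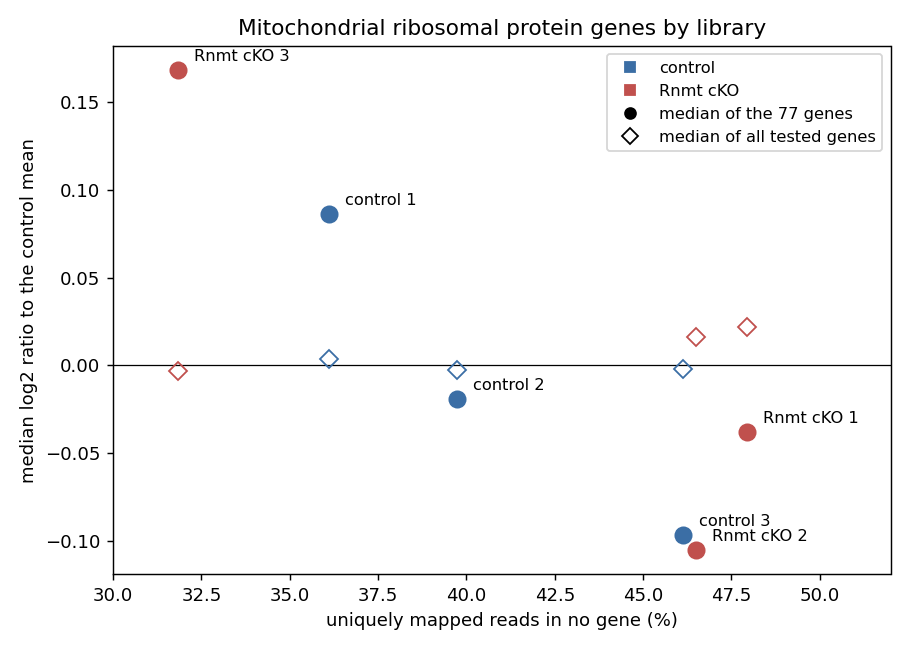
Median log2 ratio to the control mean (vertical) against the share of uniquely mapped reads in no gene (%, horizontal) for each library, for the 77 genes (filled circles, named) and for all tested genes (open diamonds). Rnmt cKO 3 at 0.17 and control 1 at 0.09 stand above the other libraries, and the diamonds stay within 0.02 of 0.

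The counts of changed genes moved with these libraries. Without Rnmt cKO 3, 10 of the 77 were lower, where 10.5% of all tested genes were. The 10 included Mrpl10, Mrpl11, Mrpl14, Mrpl55, Mrps14 and Mrps28. With the share of reads in no gene as a covariate in the quasi-likelihood test, 3 were lower and 7 higher, where 11.9% and 13.7% of all tested genes were. With scaling by library size alone, 1 was lower and 10 higher, where 4.34% and 15.7% were, but that scaling moved the median of all tested genes to 0.14 and that of the family to 0.12.

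The same comparison was read for other genes of mitochondrial translation. Of 46 genes in 4 lists, 1 fell and 0 rose by the exact test, where 6.84% and 8.00% of all tested genes did, with a p under 0.05 before adjustment for 2 lower and 2 higher genes and 0 rises by the quasi-likelihood and DESeq2 tests, and the median log2 fold change was 0.07. The gene that fell was Tfb1m, the methyltransferase that dimethylates adenosines of the small subunit rRNA. It held 9.74, 10.7 and 9.81 CPM in the controls and 5.48, 7.41 and 5.46 CPM in the Rnmt cKO libraries, apart in every library (log2 fold change -0.71 ± 0.15 SE, adjusted p = 0.0052), and did not pass without control 2 or Rnmt cKO 1. Among the 23 other assembly and rRNA modification factors, Mrm2, the 2′-O-methyltransferase of the large subunit rRNA, had the highest log2 fold change (0.54 ± 0.23 SE, adjusted p = 0.14). The 13 translation factors ran from -0.22 (Mtif2) to 0.13 (Guf1) and 0 passed the exact test. Of the 4 transcription factors of mitochondria and the 5 ribosomal proteins under other symbols (Dap3, Ptcd3, Chchd1, Aurkaip1 and Gadd45gip1) 0 passed it, with Chchd1 at -0.37 ± 0.21 SE (adjusted p = 0.15).

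Counts of mitochondrial rRNA were lower in Rnmt cKO. The RNA of the large subunit, mt-Rnr2, held 34675, 34561 and 35638 CPM in the controls and 19913, 22630 and 27167 CPM in the Rnmt cKO libraries (log2 fold change -0.59 ± 0.13 SE, adjusted p = 0.00025). The RNA of the small subunit, mt-Rnr1, fell too (-0.42 ± 0.13 SE, adjusted p = 0.012). The groups did not overlap for either. Depletion with the Ribozero Gold kit removes mitochondrial rRNA, so these counts are of what remained after depletion, and the part of the depletion in the difference was not tested. Both genes were looked at after the results for the family were known.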

How the data were processed

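The authors sequenced RNA of 3 control and 3 Rnmt cKO samples, aligned it with STAR 2.5.2b to mm10 with GENCODE vM12 basic, and deposited raw read counts per gene and library. Of these, the sense-strand counts were used. In the deposited comparison table, the normalized signal of each sample served only to check the strand, and the authors' own fold changes and p-values were not used. Lines of unassigned reads stayed out of library sizes.

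The 12336 genes above 1 CPM in 3 or more samples were compared with edgeR 4.0.16 under R 4.3.3, using TMM scaling and, as in the study, the exact test (tagwise dispersions). Adjustment was by Benjamini-Hochberg over these genes, at a threshold of 0.05. Fold changes set Rnmt cKO over control on the log2 scale, and their SE came from per-library log2 CPM with a prior count of 2. RPKM used exon lengths of GENCODE vM21. The code was tested on simulated counts. Alternatives included edgeR's quasi-likelihood test and DESeq2 1.42.0.

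Named were all members past the threshold, the 5 largest and 5 smallest log2 fold changes, the 5 highest and 5 lowest RPKM and members with particular roles. Members and lists were chosen with earlier results of these data known. The study gives 3 mice in each group for this sequencing, while the labels tie no sample to an animal. Within each group, no 2 libraries were alike within sampling noise (chi-square per degree of freedom from 3.64 to 22.9).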

Additional observations from a re-analysis of the deposited data

How the results depend on the processing

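Across 16 other settings of the fit, the median log2 fold change of the 77 genes stayed between -0.07 and 0.12, within the spread between libraries. Of 349 values recomputed for the 22 members named with a log2 fold change, 309 kept their direction and side of the threshold, 18 no longer passed, 13 newly passed and 9 changed sign. The labels number the samples 1 to 3 in each group, but same-numbered samples did not deviate together. Across genes, their deviations from the group means had correlations of -0.21, -0.02 and -0.35. With the number as a replicate block in the quasi-likelihood test, 0 members were lower and 0 higher (3 and 5 at an unadjusted p under 0.05), 0 of the other 46 translation genes were lower, and 276 genes in all were lower and 431 higher. With the share of reads in no gene as covariate, 3 members were lower and 7 higher, 2 of the other translation genes were lower and 3 higher, and 1466 genes in all were lower and 1696 higher. The DESeq2 Wald test gave 0 members lower and 2 higher, with 2 and 5 at an unadjusted p under 0.05. Above 10 CPM, where 72 members remained and Mrpl14 and Tfb1m were not tested, 0 members and 0 of the other translation genes were lower. Scaling by library size only gave 10 members and 3 of the other translation genes higher, 535 genes in all lower and 1939 higher, a log2 ratio of the summed level of 0.13, and turned Mrpl23 to 0.063 and Mrps18a to 0.012. Leaving out each library in turn gave 0 to 10 members lower and 1 to 4 higher, 0 to 2 of the other translation genes lower, and 547 to 1285 genes in all lower and 643 to 1221 higher. The 10 members and the 1285 genes were those without Rnmt cKO 3, and the cause was not tested. The same omissions took Mrpl12 from -0.35 to 0.014, Mrps12 from -0.086 to 0.24, Mrpl23 from -0.26 to 0.10 and Mrpl44 from -0.13 to 0.21. Depth limits members such as Mrpl14, which rested on 35 counts in its shallowest library.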
